A study of Mus musculus with 30 samples.

Results

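The genes described here are interferon response genes, a listed set of 42 mouse genes whose RNA rises in many cell types after interferon. The cells were 3T3-L1, preadipocytes of mouse origin that turn into fat cells in culture. The members were taken from a list of names that was chosen with earlier results of these data known. Shares of members set beside shares of all entries therefore describe the list and do not test it. Of the 42, 36 were measured among 14763 named genes. Cmpk2, Ifi44, Irf7, Mx1, Oas1a and Psmb9 were not analysed here. The 30 arrays had 2 colours and set the RNA of each sample (Cy3) against a shared reference (Cy5) mixed from equal aliquots of control and exposed samples. There were 10 groups of 3 arrays. DMSO at 0.1% was the solvent control. MDI was a hormonal cocktail given for 48 h, followed by insulin alone for 8 days. It joined insulin (10 µg/mL) to the glucocorticoid dexamethasone (0.25 µM) and to the phosphodiesterase inhibitor isobutyl methylxanthine (0.5 mM). The other 8 groups were exposed to ROSI, TBT, BPA, BBP, DEHP, BP, EB or PP, and no dose of these is given in the labels. The labels do not spell these codes out. By common usage ROSI stands for rosiglitazone, TBT for tributyltin, BPA for bisphenol A, BBP for benzyl butyl phthalate and DEHP for di(2-ethylhexyl) phthalate. No meaning is assigned to BP, EB or PP. All groups held the same cell line in 10% serum, were first exposed 2 days after confluence and were harvested on day 10.

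Type I interferons bind a cell surface receptor whose kinases activate transcription factors, Stat2 among them. Stat2 acts with Irf9 at a promoter element called ISRE, while interferon gamma acts mainly through an element called GAS. The genes they switch on encode sensors of foreign nucleic acid, proteins that block viruses inside the cell, GTPases that attack the vacuoles of intracellular pathogens, and the machinery that cuts and presents antigens. Preadipocytes and fat cells carry both receptors, and several of these genes keep a low tonic activity in cells that meet no virus. Most members therefore share regulators, so the values of different members on an array are not independent of each other.

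Each member was measured as a log2 ratio of the sample to the reference, averaged over its probes. The 36 members had 44 probes, and 8 members had more than 1. Such ratios compare samples for a gene but give no absolute level and cannot be set against those of another gene. The array medians lay between -0.00336 and 0.0139. The base of the deposited logs is not stated and is read as 2. Across all entries the mean profiles of DMSO and MDI were opposed (r = -0.512). The dye of each channel is stated in the labels, so no array was turned differently from the rest. The series record speaks of biological replicates, while the sample labels name no separate cultures. The p-values therefore reflect the variation among these particular samples, which may be technical. In bulk RNA, fewer cells of a type and less RNA per cell cannot be told apart. A member was called higher or lower when limma's moderated test, adjusted over all 19231 gene and probe entries by the Benjamini-Hochberg method, gave an adjusted p under 0.05. Log2 fold changes are given ± SE, and the SE comes from the residual variation of all 10 groups together, with 3 arrays in each.

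RefSeq promoter windows (GRCm38.p6), from 250 bases before to 50 bases after each start site, were found for 26 of the 36 members. The ISRE core, read here as GAAANNGAAA on either strand, occurred in 14 of these 26 members (53.8%) and in 3.99% of 27025 genes. The GAS core, read as TTCNNNGAA, occurred in 8 of 26 (30.8%) and in 9.55% of all genes. A match describes letters in a window and is not a tested binding site. The stretches below surround the ISRE cores, in capitals, of the 6 matching members whose group means ranged most widely and of Gbp2, which followed another pattern across the groups. The Isg15, Bst2 and Irgm1 capitals hold overlapping matches (3, 2 and 2), and in Bst2 a GAS match overlaps the first of them.
Isg15, chr4:156200855-156200916, minus strand: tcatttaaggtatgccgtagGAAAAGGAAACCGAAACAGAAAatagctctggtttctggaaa
Ifit1, chr19:34640765-34640833, plus strand: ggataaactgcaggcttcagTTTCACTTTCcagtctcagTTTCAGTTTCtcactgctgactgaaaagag
Bst2, chr8:71537567-71537622, minus strand: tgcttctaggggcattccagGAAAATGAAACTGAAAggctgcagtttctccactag
Ifit3, chr19:34583353-34583436, plus strand: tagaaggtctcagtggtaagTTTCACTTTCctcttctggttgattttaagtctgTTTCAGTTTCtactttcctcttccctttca
Igtp, chr11:58199502-58199551, plus strand: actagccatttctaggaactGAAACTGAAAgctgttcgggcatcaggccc
Irgm1, chr11:48871415-48871470, minus strand: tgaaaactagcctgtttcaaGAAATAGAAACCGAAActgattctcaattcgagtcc
Gbp2, chr3:142620584-142620633, plus strand: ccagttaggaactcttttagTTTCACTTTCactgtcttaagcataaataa

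Across the 10 groups the members were highest in TBT and lowest, for most of them, in BP or PP. TBT held the highest group mean for 30 of 36 members, against 6.64% of all entries. BP held the lowest mean for 16 members (7.37% of all entries) and PP for 9 (5.58%). MDI held the highest mean for 3 members, Ifi27, Gbp2 and Tap2, against 20.8% of all entries. In limma's moderated F test 30 of 36 members differed among the groups, beside 49.4% of all entries. The widest ranges of group means belonged to Rtp4 (2.13), Oasl2 (1.91), Isg15 (1.88) and Ifit1 (1.87), and the narrowest to Tap1 (0.15).

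**Figure D1:**
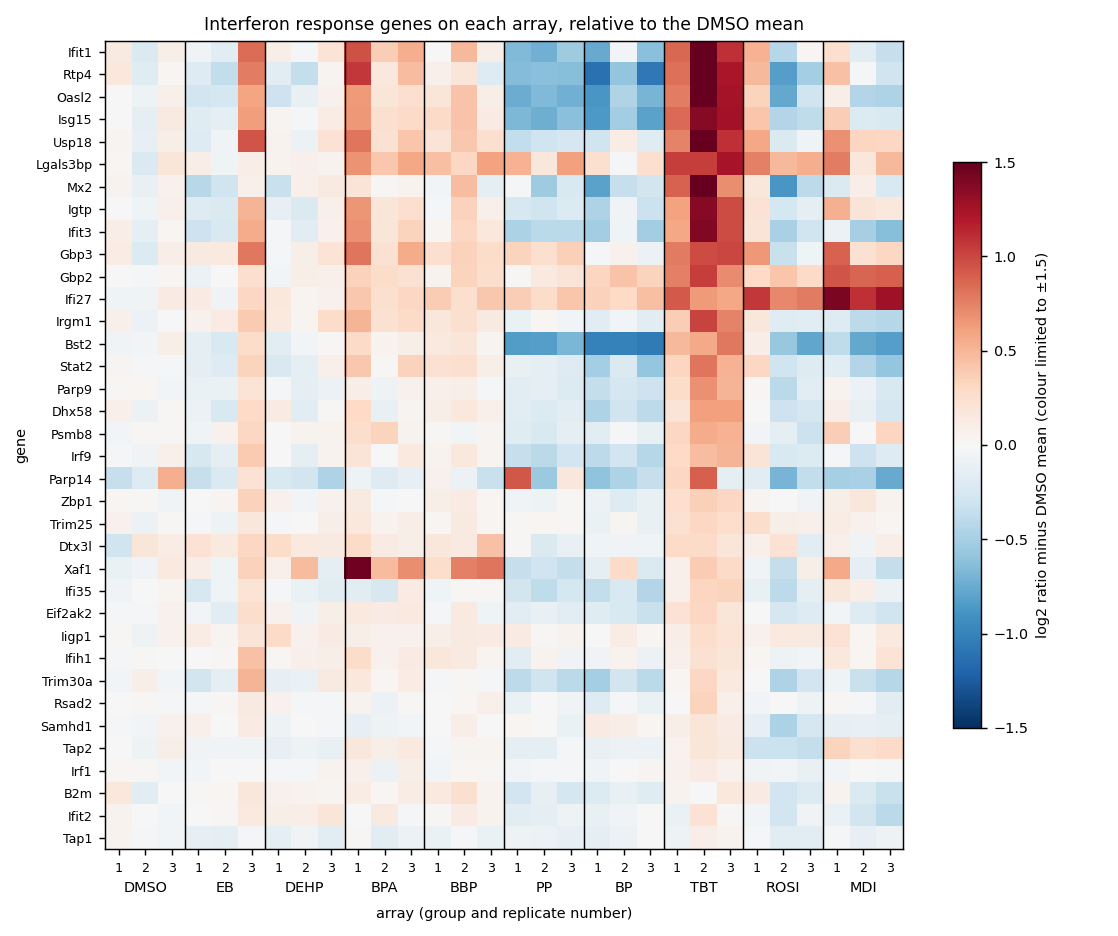
Each row is a measured member and each column an array, grouped by condition; colour gives the log2 ratio minus the mean of the 3 DMSO arrays, limited to ±1.5, and rows are ordered by the fold change of TBT against DMSO. The TBT block is the reddest, most rows are blue in BP and PP, and EB 3 stands out from EB 1 and EB 2 over most rows.

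The members were broadly higher in TBT than in DMSO. Of the 36, 24 passed as higher and 0 as lower, where 14.1% of all entries passed as higher and 10.6% as lower. All 36 fold changes were positive, with a median of 0.44 against -5.09e-05 over all entries. Over all entries the median lay between -0.01 and 0.02 in each of the 12 comparisons. On 28 members every TBT array lay above every DMSO array (19.8% of entries). Of the 24 calls, 20 stood without any single array.

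The ubiquitin-like protein Isg15, which is attached to other proteins during the response, gave log2 ratios of -0.07, -0.21 and 0.06 on the 3 DMSO arrays and of 0.77, 1.29 and 1.19 on the 3 TBT arrays. The groups lie far apart, and the lowest TBT array is above the highest array of every other group. The change was 1.16 ± 0.21 (2.23-fold, adjusted p = 0.000118), and both Isg15 probes gave it (1.18 and 1.13). Usp18, the protease that removes Isg15 and damps the receptor, rose by 1.12 ± 0.23 (adjusted p = 0.000606). Trim25, a ligase that acts with Isg15 and with the RNA sensor RIG-I, rose by 0.27 ± 0.06 (adjusted p = 0.00111). That average hides a split between its probes, of which A_55_P2098071 rose by 0.55 and A_55_P2098076 gave -0.01, and the call ended after quantile normalization.

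The Ifit proteins bind viral RNA. Ifit1 measured -0.08, -0.44 and -0.13 in DMSO and 0.65, 1.54 and 0.88 in TBT, and its groups did not overlap. It rose by 1.24 ± 0.26 (2.36-fold, adjusted p = 0.00071). Its partner Ifit3 rose by 0.98 ± 0.21 (adjusted p = 0.000851), while Ifit2 (0.05) did not pass. Rtp4, a chaperone of receptors that is also interferon-induced, measured 0.05, -0.29 and -0.08 in DMSO and 0.73, 1.45 and 1.12 in TBT. The Rtp4 arrays were again fully separated, and the gene rose by 1.20 ± 0.29 (adjusted p = 0.00294). Lgals3bp, a secreted glycoprotein that binds galectins, measured -0.50, -0.75 and -0.35 in DMSO and 0.51, 0.51 and 0.70 in TBT. Its arrays in TBT were close together and well above DMSO (1.11 ± 0.13, adjusted p = 2.78e-07). Ifi27, a small interferon-induced membrane protein, rose by 0.71 ± 0.10 (adjusted p = 3.67e-06), although TBT was not its highest group. Xaf1 (0.25) and Ifi35 (0.25) did not pass.

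All 5 guanylate binding proteins and immunity-related GTPases rose in TBT. Gbp2 measured -0.39, -0.40 and -0.35 in DMSO and 0.38, 0.65 and 0.33 in TBT. The DMSO arrays were nearly identical and the TBT arrays lay clear of them, and Gbp2 had the smallest p of all members (0.84 ± 0.08, adjusted p = 1.69e-08). Igtp measured -0.24, -0.29 and -0.15 in DMSO and 0.38, 1.14 and 0.76 in TBT (0.98 ± 0.18, adjusted p = 0.000199). Its TBT arrays differed widely among themselves, yet none came near DMSO. Irgm1, which also has a role in autophagy, rose by 0.71 ± 0.12 (adjusted p = 5.36e-05), with both probes moving the same way. Gbp3 rose by 0.92 ± 0.20. Iigp1 rose by only 0.19 ± 0.06, and its call ended without DMSO 2, TBT 2 or TBT 3 and in a fit of the compared groups alone.

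Among the antiviral effectors, Mx2, a dynamin-like GTPase, rose by 1.02 ± 0.22 (adjusted p = 0.00105). Bst2, also called tetherin, which holds budding virus at the cell surface, measured 0.31, 0.32 and 0.45 in DMSO and 0.84, 0.93 and 1.15 in TBT. The TBT arrays stood above DMSO without overlap, and the rise was 0.62 ± 0.15 (adjusted p = 0.0036). Rsad2 (0.14), the dNTP hydrolase gene Samhd1 (0.13) and Trim30a (0.16) did not pass. Samhd1 averages probes that differ: A_52_P466090 rose by 0.39 (adjusted p = 0.000285) and A_55_P2019699 gave -0.12 (adjusted p = 0.216).

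The sensor Oasl2, a relative of the oligoadenylate synthetases, measured -0.31, -0.38 and -0.23 in DMSO and 0.46, 1.27 and 0.94 in TBT. The separation was complete, and the gene rose by 1.20 ± 0.24 (adjusted p = 0.000407). Zbp1, which senses Z-form nucleic acid, rose by 0.31 ± 0.06, and Dhx58, a helicase of the RIG-I family, by 0.48 ± 0.13. The kinase gene Eif2ak2 (PKR), which stops translation on double-stranded RNA, rose by 0.24 ± 0.08, a call that ended without DMSO 1, DMSO 2, TBT 1 or TBT 2. Ifih1 (0.17) did not pass. The transcription factor genes Stat2 (0.55 ± 0.15, adjusted p = 0.00907) and Irf9 (0.42 ± 0.12, adjusted p = 0.0088) rose, and the Stat2 call ended without TBT 2 (0.42). Irf1 (0.08) did not pass.

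In the antigen presentation group, the immunoproteasome subunit Psmb8 rose by 0.46 ± 0.09 (adjusted p = 0.000485). Tap2, one chain of the peptide transporter, rose by 0.12 ± 0.04, a call that ended without DMSO 1, DMSO 2, TBT 2 or TBT 3, after quantile normalization and with only the compared groups. Its partner Tap1 (0.03) and the class I light chain B2m (0.07) did not pass. Parp9, a regulator of interferon-induced transcription, rose by 0.49 ± 0.10 (adjusted p = 0.000387). Its ligase partner Dtx3l (0.25) did not pass as an average of 2 probes, of which A_55_P2059154 rose by 0.45 (adjusted p = 8.66e-05) and A_55_P2174541 gave 0.05. Parp14 (0.35) varied from 0.07 to 1.10 within TBT and did not pass.

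**Figure D2:**
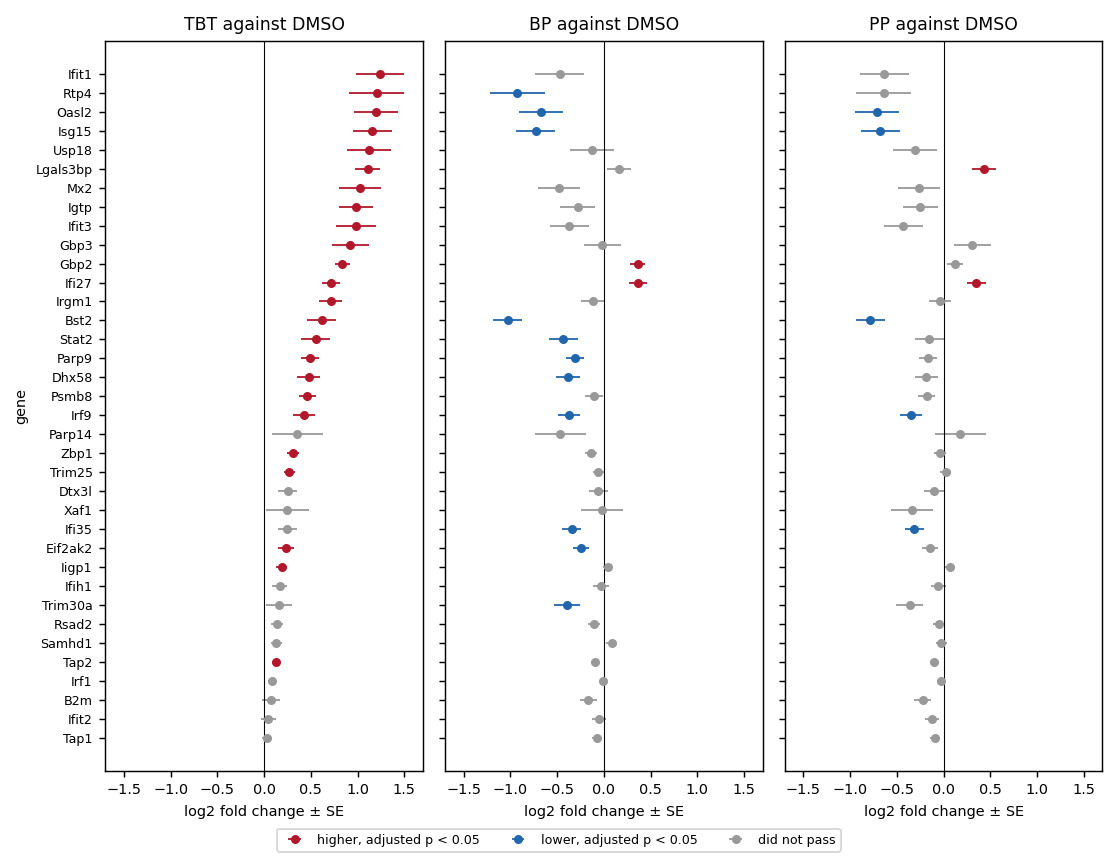
Points give each member's log2 fold change against DMSO with its SE (horizontal axis, log2 units) for TBT, BP and PP, which share the 3 DMSO arrays; red marks members called higher, blue lower and grey those that did not pass. TBT has 24 red points and no blue ones, BP 2 red and 11 blue, and PP 2 red and 5 blue.

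In BP the members lay mostly below DMSO. Of the 36, 11 passed as lower and 2 as higher, where 8.73% of all entries passed as lower and 12.9% as higher. The median fold change was -0.13 against 0.00173 over all entries, and on 14 members every BP array lay below every DMSO array (16.6% of entries). Bst2 measured -0.65, -0.66 and -0.71 in BP, against 0.31 to 0.45 in DMSO. The BP arrays were tightly grouped at the bottom of the series, and Bst2 fell by 1.03 ± 0.15 (0.49-fold, adjusted p = 1.66e-05). Isg15 measured -0.93, -0.59 and -0.87 in BP, below all DMSO arrays, and changed by -0.73 ± 0.21 (adjusted p = 0.0125). Rtp4 measured -1.23, -0.70 and -1.18 and changed by -0.93 ± 0.29 (adjusted p = 0.024), with BP 2 the closest to DMSO. Oasl2 ranged from -1.18 to -0.75 over the 3 BP arrays (-0.67 ± 0.24, adjusted p = 0.0461).

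The other members called lower in BP were Ifi35 (-0.34), Parp9 (-0.31), Irf9 (-0.37), Stat2 (-0.43), Dhx58 (-0.38), Eif2ak2 (-0.25) and Trim30a (-0.40). The calls of Irf9 and Stat2 each ended without any single array but BP 2. Gbp2 measured -0.06, 0.04 and -0.05 in BP and passed as higher (0.36 ± 0.08, adjusted p = 0.00213), as did Ifi27 (0.37 ± 0.10, adjusted p = 0.00824). Both lay above all DMSO arrays. Ifit1 (-0.47), Ifit3 (-0.37) and Mx2 (-0.48) did not pass. The number of calls depended on the arrays used. It was 13 with all arrays, and 5, 7 and 5 without DMSO 1, DMSO 2 and DMSO 3. It was 4, 12 and 4 without BP 1, BP 2 and BP 3. Without BP 2 the calls were 10 lower and 2 higher, beside 7.2% and 11.8% of all entries. For the other arrays left out no such share was counted. Quantile normalization moved Isg15 to -1.13, Rtp4 to -1.43, Oasl2 to -1.21 and Stat2 to -0.71, while robust eBayes ended the Oasl2 and Stat2 calls. Bst2 was the only member whose lower call stood in all these fits and under each other setting tried for the test and the normalization.

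In PP the members also lay mostly below DMSO. Of the 36 members, 5 passed as lower and 2 as higher, where 8.24% of all entries passed as lower and 12% as higher. After quantile normalization the split was 9 lower and 0 higher, and no share of all entries was counted there. The median was -0.15 against 0.00238 over all entries, and on 19 members every PP array lay below every DMSO array (15.8% of entries). Bst2 measured -0.47, -0.47 and -0.33 in PP, well under its DMSO arrays, and changed by -0.78 ± 0.15 (adjusted p = 0.000419). Isg15 measured -0.74, -0.80 and -0.70 (-0.68 ± 0.21, adjusted p = 0.0207) and Oasl2 -1.05, -0.97 and -1.03 (-0.71 ± 0.24, adjusted p = 0.0357). The PP arrays of both genes were close to each other and did not overlap with DMSO, and quantile normalization moved Oasl2 to -1.17. Ifi35 (-0.31) and Irf9 (-0.35) also passed as lower. Ifit1 was at -0.88, -0.93 and -0.74, under all DMSO arrays, but did not pass (-0.64 ± 0.26, adjusted p = 0.0936), nor did Rtp4 (-0.64 ± 0.29, adjusted p = 0.143).

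The members called higher in PP were Ifi27 (0.35 ± 0.10) and Lgals3bp (0.44 ± 0.13), and the Lgals3bp arrays in PP (-0.02, -0.36 and 0.08) overlapped with DMSO. A fit of PP and DMSO alone called 15 members lower and 2 higher, beside 7.26% and 10.6% of entries. With all groups in the fit the 7 calls fell to 3, 4 and 3 without DMSO 1, DMSO 2 and DMSO 3. They fell to 2, 3 and 3 without PP 1, PP 2 and PP 3. No share of all entries was counted for these leave-outs. Bst2 again kept its call throughout. BP and PP were compared with the same DMSO arrays, so their values are given side by side and no overlap between them is drawn.

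MDI, the standard route to fat cells, gave member calls in both directions, and each share was below that of all entries. It gave 4 higher and 4 lower members of 36, where 20.1% and 18.3% of all entries passed, and a median of -0.04. Ifi27 measured -0.69, -0.68 and -0.51 in DMSO and 0.78, 0.47 and 0.64 in MDI. The groups were far apart, and the change of 1.26 ± 0.10 (2.39-fold, adjusted p = 8.5e-11) passed in every fit, but was 0.80 after quantile normalization. Gbp2 measured 0.55, 0.49 and 0.52 in MDI and rose by 0.90 ± 0.08 (adjusted p = 1.44e-09; 0.59 after quantile normalization). Tap2 measured 0.39, 0.29 and 0.34 in MDI against 0.04, -0.02 and 0.14 in DMSO, without overlap, and rose by 0.29 ± 0.04 (adjusted p = 3.9e-06; 0.15 after quantile normalization). Lgals3bp rose by 0.48 ± 0.13 (adjusted p = 0.00443), a call that ended without MDI 1 and after quantile normalization.

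Bst2 fell in MDI, where it measured -0.02, -0.41 and -0.46 (-0.66 ± 0.15, adjusted p = 0.00119). Lower calls also went to Ifit2 (-0.26 ± 0.08), Irgm1 (-0.34 ± 0.12) and Stat2 (-0.40 ± 0.15). The Ifit2 call ended without MDI 3, the Irgm1 call without DMSO 1, DMSO 3, MDI 2 or MDI 3, and the Stat2 call without any array but MDI 1. Quantile normalization ended the Irgm1 and Stat2 calls, and robust eBayes, array weights and the replicate block also ended that of Stat2. Without MDI 3 the count of calls was 5. The 2 probes of Samhd1 moved apart in MDI, with A_52_P466090 at 0.33 (adjusted p = 0.000837) and A_55_P2019699 at -0.57 (adjusted p = 1.54e-07).

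ROSI, an agonist of the fat cell regulator PPAR gamma, gave 3 higher and 3 lower members of 36, where 16.5% and 14.3% of all entries passed, with a median of -0.11. After quantile normalization the split was 2 higher and 4 lower, with no share of all entries counted. Ifi27 measured 0.43, 0.09 and 0.15 in ROSI and rose by 0.85 ± 0.10 (adjusted p = 1.52e-07). Lgals3bp (0.59 ± 0.13) and Gbp2 (0.33 ± 0.08) also rose, the latter not after quantile normalization. Tap2 measured -0.26, -0.26 and -0.30 in ROSI, the lowest arrays of the series for this gene, and fell by 0.33 ± 0.04 (adjusted p = 7.09e-07). Samhd1 passed as lower (-0.28 ± 0.06), again with unequal probes (-0.04 and -0.52).

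Bst2 in ROSI ran from -0.42 and -0.21 to 0.46 on ROSI 1, which overlapped with DMSO. Its call (-0.42 ± 0.15, adjusted p = 0.0428) ended without any of the 6 arrays except ROSI 1, without which the change was -0.67. The call also ended in a fit of the compared groups alone. ROSI 1 was the highest of the 3 ROSI arrays for 30 of 36 members (31.5% of entries). Without it the count of calls was 10, of which 3 were higher and 7 lower, beside 15.7% and 13.5% of entries, and the median was -0.21. The members that then joined Tap2, Samhd1 and Bst2 as lower were Parp9 (-0.28), B2m (-0.24), Tap1 (-0.16) and Mx2 (-0.63).

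Set directly against MDI, ROSI gave 4 lower and 0 higher members (10.8% and 9.47% of entries). They were Tap2 (-0.62 ± 0.04, adjusted p = 3.74e-11), Gbp2 (-0.57 ± 0.08, adjusted p = 8.5e-06), Psmb8 (-0.40 ± 0.09) and Ifi27 (-0.41 ± 0.10). The Tap2 arrays of MDI and ROSI lie at opposite ends of the series. After quantile normalization the Ifi27 call ended (-0.16, adjusted p = 0.337) and Gbp2 was at -0.38. TBT against MDI gave 23 higher and 2 lower members (12.5% and 15.7% of entries). Irgm1 (1.05 ± 0.12, adjusted p = 1.69e-07), Bst2 (1.27 ± 0.15, adjusted p = 4.1e-07) and Ifit3 (1.39 ± 0.21) had the smallest p, and Ifi27 (-0.54 ± 0.10) and Tap2 (-0.16 ± 0.04) were the lower ones. After quantile normalization Ifi27 was at -0.28 and the Tap2 call ended (-0.03, adjusted p = 0.771), as it did in a fit of the compared groups alone. TBT against ROSI gave 25 higher and 0 lower members (7.31% and 10.4% of entries), with Tap2 (0.45 ± 0.04, adjusted p = 2.08e-08), Samhd1 (0.41 ± 0.06), Parp9 (0.67 ± 0.10) and Bst2 (1.03 ± 0.15) among them. The fold changes of these contrasts do not use the DMSO arrays, but their SE draws on all groups. Both contrasts with TBT share its 3 arrays, and each shares its other group with ROSI against MDI.

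**Figure D3:**
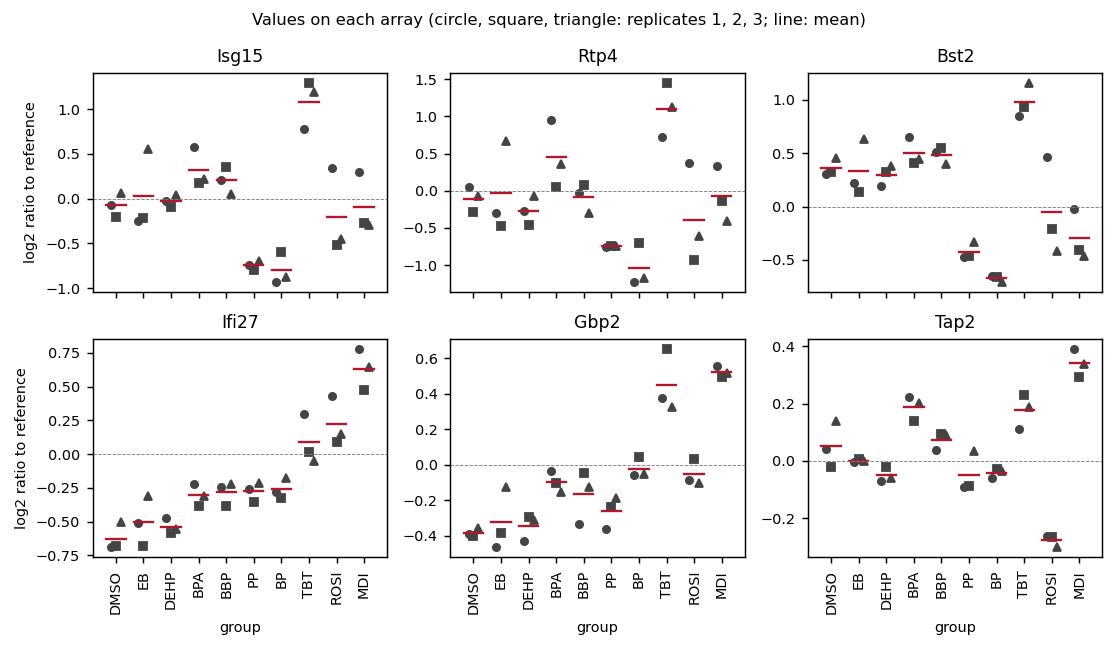
Log2 ratio to the reference (vertical axis) on each array for 6 members, with circles, squares and triangles for replicates 1, 2 and 3 and a line at each group mean. Isg15, Rtp4 and Bst2 peak in TBT and are lowest in BP or PP, Ifi27 and Gbp2 are lowest in DMSO and highest in MDI, and Tap2 is highest in MDI and lowest in ROSI.

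Ifi27, Gbp2, Lgals3bp and Iigp1 had their lowest group mean in DMSO, a description chosen after the values were seen. The Iigp1 means spanned only 0.19, and Iigp1 did not pass the F test. Ifi27 was called higher in 7 of the 9 comparisons with DMSO, Lgals3bp in 6 and Gbp2 in 5, and these comparisons share the DMSO arrays. After quantile normalization the calls of Ifi27 in BPA, BBP, BP and PP, of Gbp2 in ROSI and BPA and of Lgals3bp in MDI, BPA, BBP and PP ended. The group means of Ifi27 ran from -0.63 ± 0.10 (SD, n = 3) in DMSO to 0.63 ± 0.15 in MDI, with TBT (0.09 ± 0.18) and ROSI (0.23 ± 0.18) next below MDI. The other 6 groups lay between -0.54 and -0.26. Gbp2 was at -0.38 ± 0.03 in DMSO, 0.45 ± 0.18 in TBT and 0.52 ± 0.03 in MDI, and its TBT and MDI arrays overlapped. Bst2 was the member called lower most often, in MDI, ROSI, BP and PP.

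BPA gave 6 higher and 0 lower members of 36, where 12.3% and 6.97% of all entries passed, with a median of 0.14. They were Lgals3bp (0.55 ± 0.13, adjusted p = 0.00335), Xaf1 (0.88 ± 0.23, adjusted p = 0.00693), Gbp2 (0.29 ± 0.08), Ifi27 (0.32 ± 0.10), Tap2 (0.14 ± 0.04) and Irgm1 (0.34 ± 0.12). Xaf1, a promoter of cell death, measured 1.53, 0.54 and 0.76 in BPA and -0.04, 0.02 and 0.22 in DMSO. The groups did not overlap, but the change came from 1 of its 2 probes: A_55_P1966833 rose by 1.83 (adjusted p = 0.00423) and A_55_P1966838 gave -0.07. The count was 1 without BPA 1, where 9.57% of all entries passed as higher and 5.17% as lower. It was 3 without DMSO 1, 2 without DMSO 2 and 1 after quantile normalization, with no such share counted. BPA 1 was the highest BPA array for 29 members (32.1% of entries).

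BBP gave 2 higher and 0 lower members (6.9% and 2.35% of entries), Ifi27 (0.35 ± 0.10, adjusted p = 0.0258) and Lgals3bp (0.45 ± 0.13, adjusted p = 0.0272). Neither passed without DMSO 1, DMSO 2, BBP 1 or BBP 3, or after quantile normalization. DEHP gave 0 calls in limma, with 3 members at an unadjusted p under 0.05, where 0.0104% of entries passed as higher and 0.0052% as lower. EB also gave 0 calls in limma, with 1 member at an unadjusted p under 0.05 (0.432% and 0.25% of entries). The 7 members called in no comparison with DMSO were Dtx3l, Parp14, B2m, Tap1, Rsad2, Ifih1 and Irf1. Their fold changes in TBT ran from 0.03 for Tap1 to 0.35 for Parp14.

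The members varied more between arrays of a group than most genes did. Their median residual SD was 0.14, against 0.08 over all entries, and 18 of 36 stood above the 90th percentile of all entries. Rtp4 (residual SD 0.39), Parp14 (0.36), Ifit1 (0.35), Oasl2 (0.32), Usp18 (0.31) and Xaf1 (0.30) had the widest spread. The excess differed between groups. The median SD of members over that of all entries was 2.99 in ROSI, 2.84 in EB, 2.6 in TBT and 2.54 in MDI. It was 1.65 in BPA, 1.36 in BP, 1.25 in DEHP, 1.23 in BBP, 1.15 in DMSO and 1.03 in PP.

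Within several of these groups most members were highest on the same array, while DMSO and PP were divided more evenly. EB 3 was the highest EB array for 34 of 36 members (41.6% of entries). Isg15 measured -0.26 and -0.22 on EB 1 and EB 2 and 0.55 on EB 3, and Usp18 -0.49, -0.34 and 0.65. EB 3 thus lay above all DMSO arrays for both genes, while the other EB arrays did not. The median member, relative to the DMSO mean, was at 0.30 on EB 3 and at -0.06 on both others, and without EB 3 the median EB change turned from 0.05 to -0.08, with 0 calls either way.

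MDI 1 was the highest MDI array for 29 members (29.3% of entries), TBT 2 the highest TBT array for 28 (30.3%), BBP 2 the highest BBP array for 27 (32.2%) and BP 2 the highest BP array for 25 (31.7%). TBT 1 was the lowest TBT array for 28 members. The medians of the members on the TBT arrays were 0.29, 0.57 and 0.51, so all 3 stayed above DMSO. The medians of the adipocyte markers were 2.73, 2.71 and 2.88 on the ROSI arrays, where the members gave 0.09, -0.28 and -0.16. On the EB arrays the marker medians were 0.48, 0.16 and 0.21, so they also differed, with EB 1 and not EB 3 the highest. The cause of these shared differences was not tested.

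**Figure D4:**
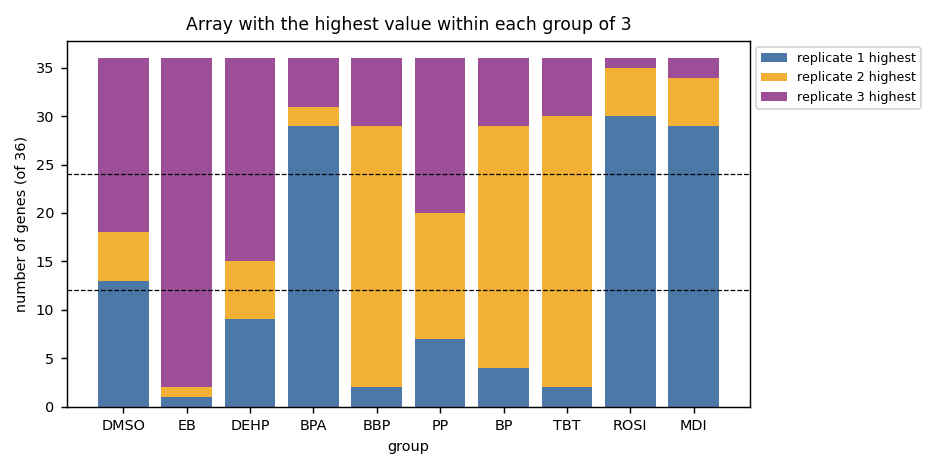
Bars count, for each group, how many of the 36 members had their highest value on replicate 1, 2 or 3 (vertical axis, number of genes); dashed lines at 12 and 24 mark equal shares. A single array takes 34 members in EB, 30 in ROSI, 29 in MDI and in BPA and 28 in TBT, while DMSO and PP are divided more evenly.

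**Figure D5:**
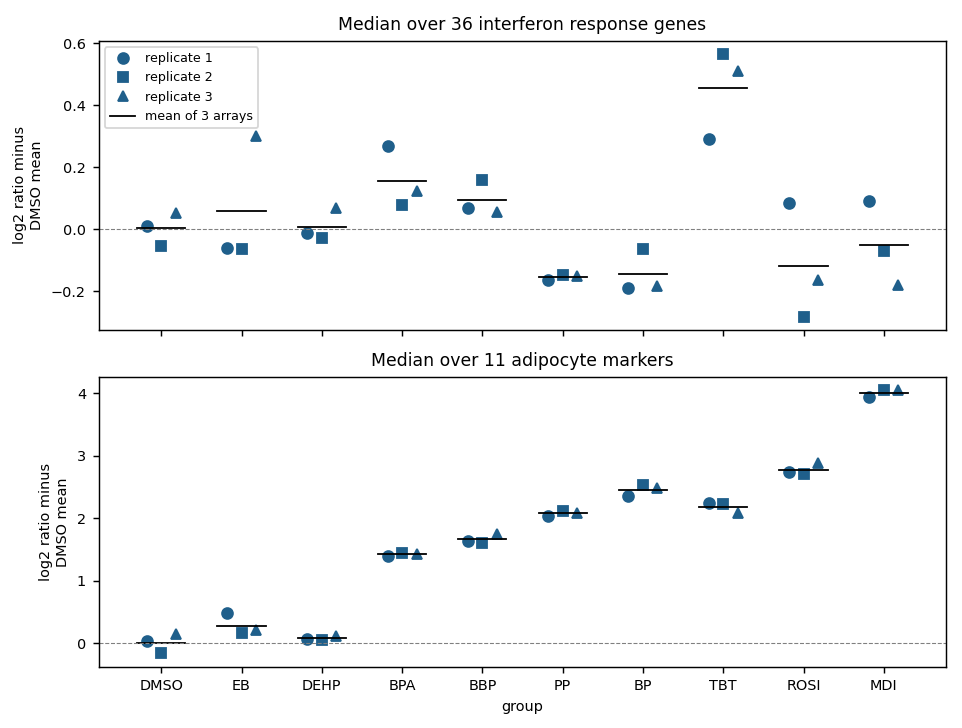
The upper panel gives the median over the 36 members on each array and the lower panel that over 11 adipocyte markers, both as log2 ratio minus the DMSO mean, with marks for the 3 replicates and a line at their mean. TBT is highest in the upper panel (0.29 to 0.57) and the PP arrays lie together near -0.15, whereas in the lower panel MDI is highest (3.94 to 4.04) and EB runs from 0.16 to 0.48.

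The list of other interferon pathway genes held 115 names, of which 87 were measured. The interferon genes measured were Ifnb1, Ifna2 and Ifna5, and none passed in any comparison. Their changes in TBT were -0.13, 0.03 and 0.09. Of 9 receptor chains and kinases, 0 passed as higher in TBT and 2 as lower, the interferon gamma receptor chains Ifngr1 (-0.31 ± 0.08, adjusted p = 0.0059) and Ifngr2 (-0.15 ± 0.06, adjusted p = 0.0437). Of the 53 other interferon-stimulated genes measured, 20 passed as higher and 3 as lower in TBT.

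Over all 87 pathway genes, 24 passed as higher and 10 as lower in TBT (14.1% and 10.6% of entries). Ifi27l2a (3.58 ± 0.11), an interferon-inducible relative of Ifi27, the proteasome activator Psme2 (0.59 ± 0.04), the adaptor Myd88 (0.40 ± 0.05) and Gbp6 (0.76 ± 0.09) had the smallest p among those higher. Tlr2 (-0.73 ± 0.06), the DNA-sensing adaptor Tmem173, also named Sting1 (-0.41 ± 0.05), Casp4 (-0.37 ± 0.07) and the signalling brake Socs3 (-0.23 ± 0.04) had the smallest p among those lower. Ifi27l2a was also higher in MDI (3.87), ROSI (4.47), BP (2.65), BBP (2.48), PP (1.46) and BPA (1.08), which share the DMSO arrays. In BP and PP it thus moved opposite to Bst2 and Isg15. In BP 9 pathway genes passed as higher and 15 as lower (12.9% and 8.73% of entries). The lysosomal reductase Ifi30 (-0.59), the brake Socs1 (-0.37), the chemokine Ccl5 (-0.51) and Tlr2 (-0.28) led those lower. In PP 10 passed as higher and 12 as lower (12% and 8.24% of entries), the latter led by Ifi30 (-0.80), Ccl5 (-0.66), Tmem173 (-0.36) and Casp4 (-0.51).

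MDI gave 19 higher and 15 lower of the 87 pathway genes, close to the shares of all entries (20.1% and 18.3%). The exonuclease Isg20 (1.01 ± 0.04) and Psme2 (0.97 ± 0.04) were among those higher. Tmem173 (-0.62), Tlr2 (-0.65), the RNA editor Adar (-0.49) and the membrane protein Ifitm3 (-0.50) led those lower. ROSI gave 8 higher and 23 lower (16.5% and 14.3% of entries), with Ifitm3 (-0.77 ± 0.07) and Socs3 (-0.41 ± 0.04) among those lower. BPA gave 11 higher and 6 lower (12.3% and 6.97% of entries), BBP 4 and 2 (6.9% and 2.35%), and DEHP and EB 0. In DEHP 3 pathway genes and in EB 11 had an unadjusted p under 0.05 in limma. The share of all entries called in each of these comparisons is given above.

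Markers of other cell types are set beside the members' results, since many cell types carry interferon response genes. A ratio cannot show that a marker is absent, nor that a cell type is present. Of 10 macrophage and leukocyte markers measured, 0 passed as higher and 1 as lower in TBT, Lyz2 (-0.64 ± 0.14). The median of these markers on the TBT arrays, relative to the DMSO mean, was -0.01, -0.04 and -0.02. Of 7 genes listed as markers of lymphocytes and plasmacytoid dendritic cells, Bst1 (0.27 ± 0.07) and Siglech (0.25 ± 0.06) passed as higher. The median of the 7 was -0.01. Of 3 endothelial markers 0 passed, with 0 at an unadjusted p under 0.05 in limma. Adipocyte markers rose (10 of 11 higher in TBT, median 2.21) and fibroblast markers fell (7 of 8 lower, median -0.42). In the other groups 10 of 11 adipocyte markers passed as higher in BP (median 2.46), PP (2.08), BBP (1.68), ROSI (2.77) and BPA (1.43). The count was 11 in MDI (4.01), 3 in EB (0.34) and 0 in DEHP (0.10). In BP 1 macrophage marker was higher, Aif1 (0.44 ± 0.15), and in PP 2 were lower, Aif1 (-0.46 ± 0.15) and Lyz2 (-0.52 ± 0.14). The part of any of these cell types in the members' changes was not tested.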

How the data were processed

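RNA of 3T3-L1 cells was measured on 30 arrays with 2 colours in 10 groups of 3. Per the labels, the authors deposited log ratios with the reference (Cy5) over the sample (Cy3), read as log2; the scanner's background correction and normalization are not given in the sources used here. Per the submitters' processing notes limma was used. The authors' deposited tables give a log2 fold change against DMSO and an adjusted p-value for each probe, used only as an alternative. Turned to sample over reference, the group differences matched those fold changes for 8 agents (r = 1, largest difference 5e-08), and the DEHP table was not used because of its decimal commas.

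The 26 control probes among 23460 were left out, and probes of a gene were averaged by the symbols of the platform annotation (18966 probes with a symbol). This gave 19231 entries, 14763 named genes and 4468 unnamed probes. One mean per group was fitted to all arrays (limma 3.58.1, R 4.3.3) and the spread moderated by eBayes (20 residual and 3.56 prior degrees of freedom) in two-sided tests with Benjamini-Hochberg adjustment over all entries. The fit was tested on simulated data. The number of arrays limits the precision, and the smallest p that an exact permutation of 3 against 3 arrays allows is 0.1. No 2 arrays held identical values (highest r = 0.892).

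The members, pathway lists and marker lists were chosen with earlier results of these data known. Any member may be named; of each comparison's calls up to 8 each way by smallest p, and of pathway genes up to 4 each way. The labels name no pairing of samples by replicate number. Same-numbered deviations correlated weakly for PP against DMSO (0.127, 0.207 and 0.166), but no fit of PP and DMSO as pairs was run. Alternatives covered array centring, quantile normalization, robust eBayes, array weights, the replicate block, the compared groups alone, each probe on its own, a fold limit, a stricter threshold, the authors' deposited adjusted p and leaving out each array. Intensities were not used here, so dim probes could not be filtered. Promoter windows came from RefSeq (GRCm38.p6).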

Additional observations from a re-analysis of the deposited data

How the results depend on the processing

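Of the 12 comparisons, the counts of called members in TBT, TBT against MDI and TBT against ROSI stayed within 1.5 times under every alternative, except the log2 fold limit of 0.5 (TBT 15). Array centring and robust eBayes moved no count by more. Quantile normalization gave 5 calls in MDI, 1 in BPA and 0 in BBP. Array weights gave 1 in BBP and 12 in PP, and a fit of only the compared groups gave 17 in PP. Each probe on its own gave 7 in ROSI against MDI. The fold limit of 0.5 gave 3 in MDI, 2 in ROSI, 2 in BPA, 0 in BBP, 4 in BP, 3 in PP and 2 in ROSI against MDI. At an adjusted p under 0.01 there were 2 in BPA, 0 in BBP, 3 in BP and 1 in PP. Leaving out 1 array gave 5 to 9 calls in MDI, 5 to 10 in ROSI, 20 to 25 in TBT, 1 to 7 in BPA, 0 to 2 in BBP, 4 to 12 in BP, 2 to 4 in PP, 4 to 6 in ROSI against MDI, 18 to 27 in TBT against MDI, 22 to 28 in TBT against ROSI, and 0 in DEHP and EB. With the replicate number as a block the counts were 8 in MDI, 24 in TBT, 10 in BP and 7 in PP. For PP no member's call changed. The block fitted a replicate effect shared by all groups, so it cannot tell whether pairing PP with DMSO would matter. Stricter thresholds call fewer members by construction. The cause of the other shifts was not tested, and the share of all entries was counted under only some alternatives. Over the 120 single calls and their alternatives, 1589 values stayed called, 277 were no longer called and none changed direction. Some of the 277 dropped out only through the fold limit or the stricter threshold, on an unchanged adjusted p. By the authors' deposited adjusted p the counts were 9 in MDI, 8 in ROSI, 26 in TBT, 8 in BPA, 2 in BBP, 14 in BP, 0 in EB and 7 in PP. These counts, and those of each probe on its own, took for each member the probe with the smallest adjusted p. That choice was not corrected for, so a member with unequal probes can count as called. Neither setting is a separate check of the averaged values. Whether a small change belongs to a dim probe was not tested, since intensities were not used.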
